A study of Mus musculus with 18 samples.

Results

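The 9 genes described here encode receptors with which liver cells sense foreign compounds, bile acids and sterols, and receptors that act with these. Those for foreign compounds are *Nr1i3* (CAR), *Nr1i2* (PXR) and *Ahr* (the aryl hydrocarbon receptor). *Nr1h4* (FXR) is that for bile acids, and *Nr1h3* (LXRα) and *Nr1h2* (LXRβ) are those for sterols. *Nr0b2* (SHP) and *Nr5a2* (LRH-1) act after FXR on bile acid synthesis, and *Rxra* is a shared partner. The 9 genes were taken by symbol from the deposited count table, where they are 9 of 52636 gene rows. All 9 passed the filter on low counts. CAR, PXR, FXR and the LXRs bind DNA mainly as pairs with RXRα and are switched by ligands such as drugs, bile acids and oxysterols. In the liver, CAR and PXR turn on cytochrome P450s, conjugating enzymes and transporters, FXR induces SHP, which has no DNA-binding domain and holds back LRH-1 and with it bile acid synthesis, and the LXRs turn on sterol export and fatty acid synthesis. AHR is not a nuclear receptor by structure: it belongs to the basic helix-loop-helix PAS proteins and pairs with ARNT.

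RNA was sequenced from 18 frozen livers collected at ZT8, a clock time counted in hours after lights on, with 3 numbered replicates per group in 6 groups. H-KO and H-WT livers were from 10-week-old mice whose strain label holds Hnf4atm1.1Gonz, a conditional allele of the hepatocyte nuclear receptor gene *Hnf4a*, and Albtm1(cre/ERT2)Mtz, which puts a Cre that tamoxifen switches on under the control of the albumin gene. BH-KO and BH-WT livers were from 10-week-old mice whose label holds both of these and Arntltm1Weit, a conditional allele of the clock gene *Arntl* (Bmal1). BH-HF-KO and BH-HF-WT livers were from 45-week-old mice of the same label as BH, kept on a high-fat diet for 35 weeks from the age of 10 weeks. Per the labels, tamoxifen in corn oil (10 mg/mL) was injected into the abdomen on 5 days at 8 weeks of age, with no group exempted. KO and WT samples carry the same strain label, and no label says how the WT mice differ. The strain labels name 129X1/SvJ, 129S2/SvPas and C57BL/6 backgrounds in all groups, and 129S4/SvJae also in BH and BH-HF. No label says that replicates are separate animals, so p-values measure the spread between these samples. Albumin-driven Cre acts in hepatocytes, so the other cells of the liver keep their alleles. Between H and BH the line differs, and between BH and BH-HF age and diet both differ, so these cannot be told apart.

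Levels are given in CPM, the count per 1000000 counts of a library's total after its TMM scaling factor, as mean ± SD with n = 3 libraries per group. Log2 fold changes are KO over WT unless stated, ± their standard error (SE). Adjusted p-values come from the quasi-likelihood F-test of edgeR, adjusted by Benjamini and Hochberg's method over the 13958 genes tested, and a gene is said to have risen or fallen where its adjusted p was under 0.05. The test pools the spread between replicates over all 6 groups.

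Total counts were 6846471 to 9816124 per library. *Hnf4a* itself, measured over the whole gene, gave 556 to 658 CPM in H-KO and 581 to 889 CPM in H-WT libraries (log2 fold change -0.35 ± 0.21, adjusted p = 0.208). It gave 495 to 867 CPM in BH-KO and 772 to 890 CPM in BH-WT libraries (-0.40 ± 0.21, adjusted p = 0.164), and 820 to 978 CPM in BH-HF-KO and 768 to 840 CPM in BH-HF-WT libraries (0.14 ± 0.21, adjusted p = 1). A conditional deletion removes part of a gene, so these totals check the labels only weakly. *Arntl* was at 17.4 to 24.1 CPM in BH-KO libraries, against 0.421 to 0.799 CPM in BH-WT libraries, 32-fold higher in BH-KO (adjusted p = 2.13e-06), so the whole-gene count of the targeted gene was higher there and not lower. It was at 0.885 to 2.54 CPM in the libraries labelled BH-HF-KO and 1.03 to 2 CPM in BH-HF-WT libraries. The high *Arntl* counts seen in BH-KO were therefore absent under the BH-HF-KO label. Every direction drawn from libraries with that label rests on a label that their *Arntl* counts go against. Their albumin share of all counts did separate from WT, at 2.68 to 3.72% against 6.18 to 7.71% in BH-HF-WT libraries. The direction was that of H-KO and BH-KO against their WT. Whether either value reflects the genotype was not tested. BH-KO replicate 1 stood apart from the other BH-KO libraries: its counts differed from theirs with a chi-square per degree of freedom of 137 and 144, against 9.14 to 73.1 for all other pairs within a group. In H-WT replicate 3, the X-inactivation RNA *Xist* was at 1084 CPM and the Y-linked *Ddx3y* at 5.74 CPM, the pattern of a female. Values without these libraries are given beside the results they touch.

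Transcripts of other liver cells moved between the groups as well. The summed level of 10 hepatocyte markers was 24558 to 27704 CPM in H-KO and 108065 to 114207 CPM in H-WT libraries. Of the 10, 6 fell, beside 19.1% of all genes. The number of falls was 4 to 5 as each library was left out, and without H-WT replicate 3 there were 4 falls and 1 rise. The sum was 38814 to 86176 CPM in BH-KO against 106891 to 138069 CPM in BH-WT libraries. Here 1 of the 10 rose, 1 fell and 8 did not pass (median log2 fold change -0.12), beside 14.3% of all genes rising and 14.3% falling. Without BH-KO replicate 1, 4 fell. The sum was 76160 to 89220 CPM in libraries labelled BH-HF-KO against 117718 to 141655 CPM in BH-HF-WT libraries. Here 0 of 10 passed (median -0.09). The sums include albumin, the gene whose control the Cre is under. Albumin made up 1.35 to 1.68% of all counts in H-KO libraries against 6.78 to 7.74% in H-WT. It made up 1.79 to 3.71% in BH-KO against 6.69 to 8.48% in BH-WT, and 2.68 to 3.72% in BH-HF-KO against 6.18 to 7.71% in BH-HF-WT. Whether the sums differ without albumin was not tested. Of 12 macrophage markers, none passed in H-KO (179 to 278 CPM summed, against 82.2 to 605 in H-WT), and 9 fell in BH-KO (67.6 to 375 CPM summed, against 306 to 1494 in BH-WT). Of all genes, 34.9% passed in H and 14.3% fell in BH. This count of 9 was 1 to 11 as each library was left out in turn, and it moved by over 1.5 times without BH-KO replicate 2, BH-KO replicate 3 or BH-WT replicate 2. The 10 cholangiocyte markers summed to 137 to 202 CPM in H-KO against 51 to 75.6 in H-WT, and to 135 to 380 CPM in BH-KO against 56.3 to 123 in BH-WT. Of 6 tested, 4 rose in H-KO, beside 15.8% of all genes, and 3 rose in BH-KO, beside 14.3%. The count in H-KO was 2 to 4 as each library was left out. It moved by over 1.5 times without H-KO replicate 1, H-KO replicate 3, H-WT replicate 1 or H-WT replicate 2. In BH-KO the 3 rises were kept each time, and 3 fell without BH-KO replicate 1. No hepatocyte or macrophage marker was at 0 in any group. In bulk RNA, fewer cells of a type and less RNA per cell cannot be told apart, and the part of these markers in the results below was not tested.

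In the H line, 5 of the 9 receptor genes passed the test in KO livers: 4 fell and 1 rose. This share is read against all tested genes, of which 34.9% passed, 19.1% falling and 15.8% rising. In the BH line 5 of 9 passed and all 5 fell, against 28.6% of all genes passing and 14.3% falling. *Nr1i3*, *Nr1h4*, *Nr1h3* and *Rxra* fell in both lines. In the BH-HF setting 0 of 9 passed, as did 0% of all genes by edgeR, by DESeq2 and by limma-voom, while 490 genes had an unadjusted p under 0.05. In CPM, 4 receptors had every H-KO library below every H-WT library, where 51.9% of all genes had no overlap in either direction and 25.9% lay below. For BH-KO and BH-WT it was 6 receptors, all below, against 34.9% of all genes in either direction and 16.8% below, and for BH-HF-KO and BH-HF-WT it was 0 against 10.4%.

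**Figure D1:**
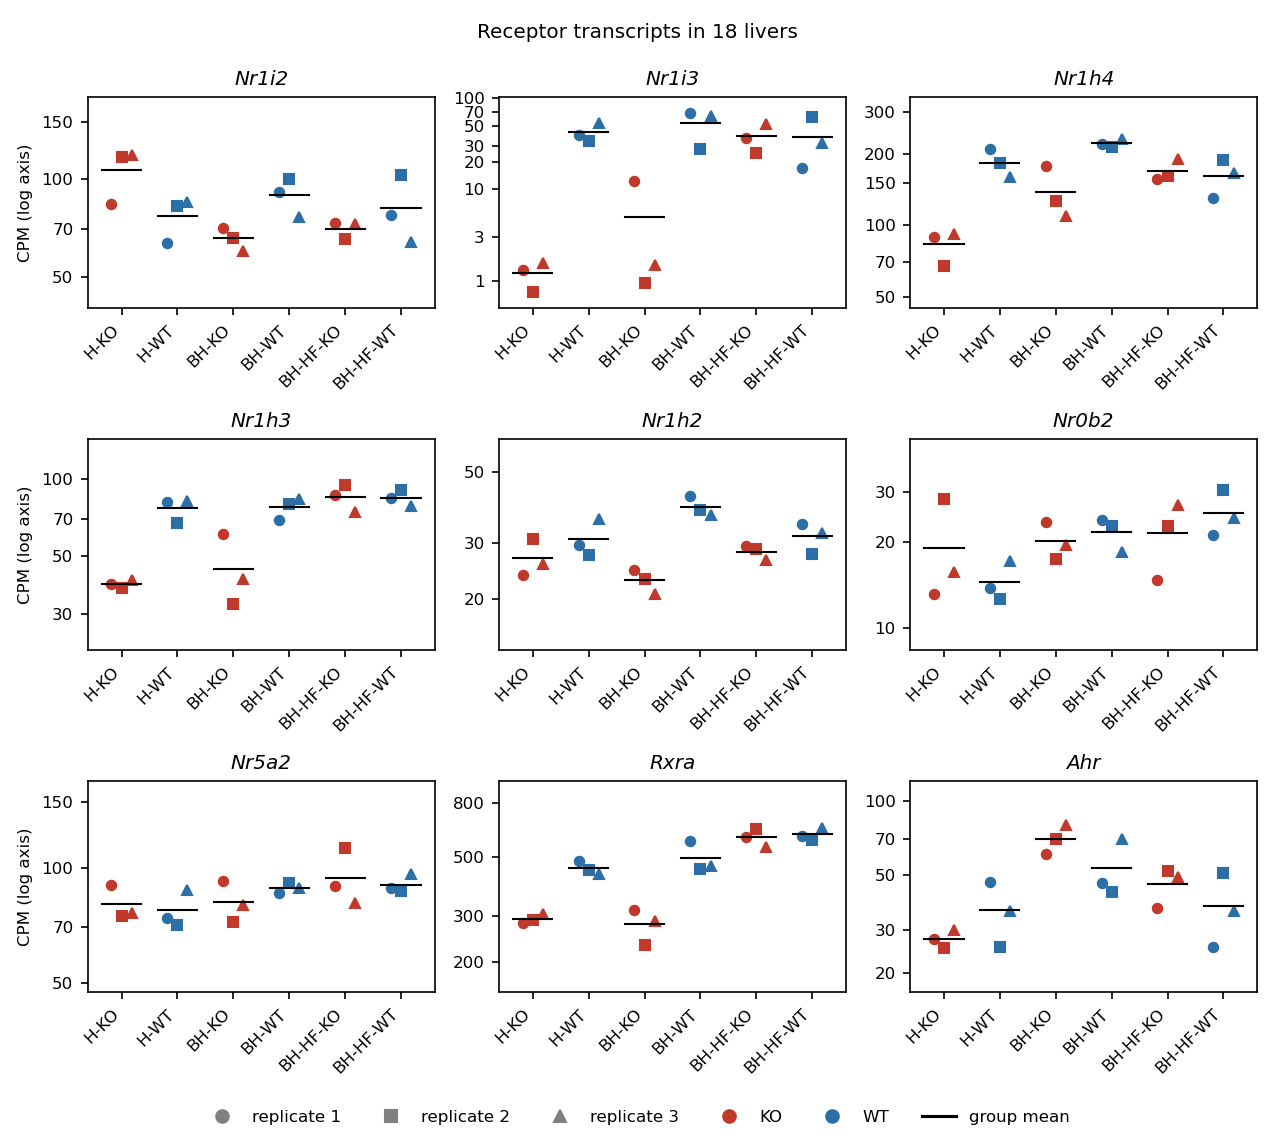
Level of each receptor transcript in each of the 18 libraries, in CPM on a log axis, with KO in red, WT in blue, a marker shape per replicate number and a line at the group mean. *Nr1i3* lies between 0.757 and 1.56 CPM in H-KO libraries, and BH-KO replicate 1 (12.5 CPM) lies above the other BH-KO libraries.

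**Figure D2:**
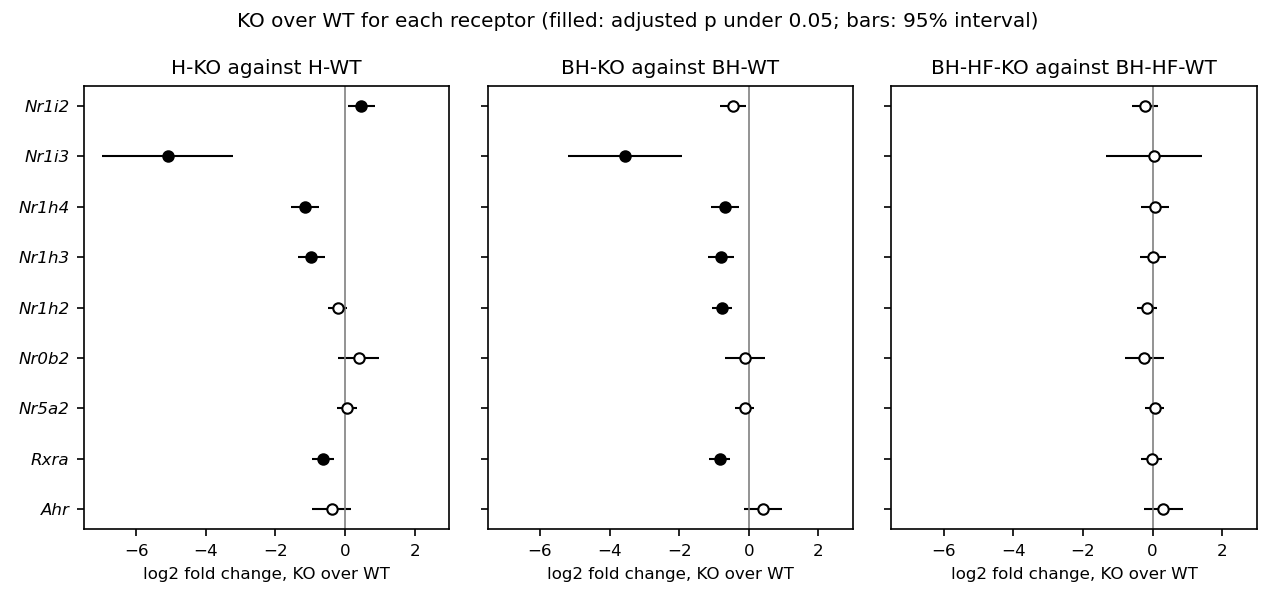
Log2 fold change of KO over WT for each receptor in the H, BH and BH-HF settings, with bars for the 95% interval and filled points for an adjusted p under 0.05. *Nr1i3* has the lowest value of the 9 in H and BH (-5.10 and -3.56), and all 9 points are open in BH-HF.

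CAR is held in the cytoplasm of hepatocytes until drugs or other signals release it, and its gene *Nr1i3* (ENSMUSG00000005677, mm10 chr1:171213970-171220701, plus strand) changed most. H-KO livers had 1.3, 0.757 and 1.56 CPM, against 39.5, 34.1 and 53.4 CPM in H-WT livers. BH-KO livers had 12.5, 0.951 and 1.5 CPM, against 67.9, 27.8 and 63.3 CPM in BH-WT livers. Libraries labelled BH-HF-KO had 36.9, 24.8 and 52.5 CPM, against 17.2, 61.8 and 32.2 CPM in BH-HF-WT livers. Every KO library lay below every WT library in H and in BH, and the groups overlapped in BH-HF. *Nr1i3* was 34.3-fold lower in H-KO (log2 fold change -5.10 ± 0.86, adjusted p = 0.000637; -4.90 ± 0.92 without H-WT replicate 3). It was 11.8-fold lower in BH-KO (-3.56 ± 0.75, adjusted p = 0.00415), and without BH-KO replicate 1 the value was -5.41 ± 0.72 (adjusted p = 8.08e-05). With BH-KO and BH-WT fitted alone, the call was lost (-3.50 ± 0.97, adjusted p = 0.076). In BH-HF the log2 fold change was 0.04 ± 0.64 with a 95% interval of -1.35 to 1.43.

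Reads of *Nr1i3* can also belong to a neighbour. Of its annotated exon bases, 3304 (74.9%) are shared with *Tomm40l*, a mitochondrial import gene on the opposite strand, and whether the counting used strand was not stated in the labels. *Tomm40l* has its own row and was at 9.07 ± 0.685 CPM in H-KO against 10.9 ± 2.87 CPM in H-WT (-0.26 ± 0.48, adjusted p = 0.72). It was at 8.78 ± 2.65 CPM in BH-KO against 12.2 ± 6.5 CPM in BH-WT (-0.44 ± 0.48, adjusted p = 0.514). Libraries labelled BH-HF-KO had 8.56, 5.87 and 14.1 CPM of *Tomm40l*, against 4.49, 18 and 9.3 CPM in BH-HF-WT livers. Ranked within a group, the replicates had the same order for both genes in H-KO, BH-HF-KO and BH-HF-WT. The order differed in H-WT, BH-WT and BH-KO. Whether shared reads play a part in this was not tested. The split of reads between the genes is therefore uncertain, and the low *Nr1i3* levels in H-KO rest on 7 or more counts per library.

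The sequence just before the start of a gene is where the receptors' own regulators may bind. The windows shown are the 250 bases before the RefSeq start on GRCm38.p6, which for *Nr1h4* and *Rxra* lies inside the gene span given here, for 3 of the 4 receptors that fell in both lines (*Nr1i3*, *Nr1h4* and *Rxra*, at its first start in the table) and for *Nr0b2*, which did not pass in either. The window of *Nr1h3*, the remaining receptor that fell in both, lies partly in an annotated exon of the gene and is not printed. Capitals mark CACGTG, the E-box that BMAL1 and other basic helix-loop-helix proteins bind. The search covered both strands for CACGTG and for CAAAGTCCA and CAAAGGTCA, forms of the element that HNF4α binds. The windows are chr1:171213720-171213969 (plus strand), chr10:89506659-89506908 (minus strand), chr2:27676951-27677200 (plus strand) and chr4:133553126-133553375 (plus strand), in the order printed.
Nr1i3: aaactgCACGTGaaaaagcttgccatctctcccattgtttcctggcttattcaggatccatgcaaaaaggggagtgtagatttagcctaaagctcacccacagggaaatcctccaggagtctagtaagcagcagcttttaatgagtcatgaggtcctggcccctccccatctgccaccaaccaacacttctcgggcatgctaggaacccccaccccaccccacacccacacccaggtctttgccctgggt
Nr1h4: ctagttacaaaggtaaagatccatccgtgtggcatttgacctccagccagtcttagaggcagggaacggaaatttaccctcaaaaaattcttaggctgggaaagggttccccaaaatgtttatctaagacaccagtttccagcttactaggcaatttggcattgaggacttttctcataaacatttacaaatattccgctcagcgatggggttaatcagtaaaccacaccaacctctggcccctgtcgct
Rxra: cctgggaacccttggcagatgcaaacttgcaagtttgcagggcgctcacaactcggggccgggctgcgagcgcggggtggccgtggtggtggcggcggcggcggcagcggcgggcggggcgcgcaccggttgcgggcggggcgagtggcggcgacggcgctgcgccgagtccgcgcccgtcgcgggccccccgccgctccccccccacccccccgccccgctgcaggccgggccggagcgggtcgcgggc
Nr0b2: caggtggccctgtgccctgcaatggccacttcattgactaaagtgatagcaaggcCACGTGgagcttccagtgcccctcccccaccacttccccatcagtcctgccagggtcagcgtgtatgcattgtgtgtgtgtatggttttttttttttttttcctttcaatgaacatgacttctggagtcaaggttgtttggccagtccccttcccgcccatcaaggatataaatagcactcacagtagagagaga
Of the 9 receptors, 8 have a window in the table. *Nr1i3* and *Nr0b2* each held CACGTG, at positions -244 and -195 relative to the start, and the windows of the other 6 held none. Among 32851 promoter windows of this length, 6.02% held CACGTG. None of the 8 receptors held CAAAGTCCA (0.384% of all windows) or CAAAGGTCA (0.426%). A match is a description of letters and not a binding site.

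PXR, encoded by *Nr1i2* (ENSMUSG00000022809, chr16:38248323-38294824, minus strand), responds to a wide range of drugs and steroids. H-KO livers had 83.9, 117 and 119 CPM, against 63.7, 82.5 and 84.9 CPM in H-WT livers. BH-KO livers had 70.8, 65.8 and 60.1 CPM, against 91.5, 100 and 76.1 CPM in BH-WT livers. On the high-fat diet, libraries labelled BH-HF-KO had 73.2, 65.2 and 72.6 CPM, against 77.6, 103 and 64.1 CPM in BH-HF-WT livers. The H groups overlapped narrowly, the BH-KO libraries all lay below the BH-WT libraries, and the BH-HF groups overlapped. *Nr1i2* rose in H-KO (0.47 ± 0.17, adjusted p = 0.0473). That call was lost when any of H-KO replicate 2, H-KO replicate 3 or the 3 H-WT replicates was left out, with 0.34 to 0.54 and adjusted p of 0.0548 to 0.186, and under limma-voom (adjusted p = 0.054). In BH-KO it did not pass (-0.45 ± 0.17, adjusted p = 0.0662), and without BH-KO replicate 1 it did (-0.51 ± 0.19, adjusted p = 0.0464). In BH-HF the log2 fold change was -0.22 ± 0.17 (adjusted p = 1).

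*Ahr* (ENSMUSG00000019256, chr12:35497974-35535038, minus strand) encodes the sensor of dioxins and of many plant and microbial compounds. H-KO livers had 27.5, 25.2 and 30 CPM, against 46.8, 25.6 and 35.6 CPM in H-WT livers. BH-KO livers had 60.7, 69.9 and 79.9 CPM, against 46.6, 42.8 and 70.2 CPM in BH-WT livers. Libraries labelled BH-HF-KO had 36.6, 51.9 and 49.3 CPM, against 25.5, 50.8 and 35.6 CPM in BH-HF-WT livers. KO and WT overlapped in every setting and none of the 3 comparisons passed (-0.38 ± 0.26, 0.40 ± 0.25 and 0.30 ± 0.26 in H, BH and BH-HF). The highest group mean of *Ahr* was in BH-KO and the lowest in H-KO, and these groups did not overlap: BH-KO was 2.55-fold above H-KO (1.35 ± 0.26, adjusted p = 0.00294; 1.44 ± 0.28 without BH-KO replicate 1). BH-WT and H-WT overlapped (0.56 ± 0.26, adjusted p = 0.527). *Ahr* shares 127 exon bases (2.06%) with *Gm48236*, a long non-coding RNA on the opposite strand.

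FXR is the bile acid receptor, and its gene *Nr1h4* (ENSMUSG00000047638, chr10:89454234-89533585, minus strand) was among the receptors that fell in both lines. H-KO livers had 89.7, 67.5 and 92.3 CPM, against 209, 182 and 159 CPM in H-WT livers. BH-KO livers had 178, 126 and 109 CPM, against 220, 214 and 230 CPM in BH-WT livers. On the high-fat diet, libraries labelled BH-HF-KO had 157, 161 and 190 CPM, against 130, 188 and 166 CPM in BH-HF-WT livers. Neither the H nor the BH groups overlapped, and BH-KO replicate 1 was the nearest to its WT group. *Nr1h4* was 2.21-fold lower in H-KO (-1.14 ± 0.19, adjusted p = 0.000326; -1.24 ± 0.20 without H-WT replicate 3). It was 1.61-fold lower in BH-KO (-0.69 ± 0.18, adjusted p = 0.0122), with -0.92 ± 0.17 (adjusted p = 0.000507) without BH-KO replicate 1. The BH call was lost without BH-KO replicate 2 (adjusted p = 0.0532), without BH-KO replicate 3 (adjusted p = 0.0646) and with these groups fitted alone (adjusted p = 0.0831). In BH-HF the log2 fold change was 0.07 ± 0.18 with an interval of -0.33 to 0.47.

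SHP is the product of an FXR target gene, *Nr0b2* (ENSMUSG00000037583, chr4:133553376-133556536, plus strand), and its level did not pass in any comparison. H-KO livers had 13.2, 28.2 and 15.7 CPM, against 13.8, 12.6 and 17.2 CPM in H-WT livers (0.39 ± 0.27, adjusted p = 0.28). BH-KO livers had 23.5, 17.5 and 19.6 CPM, against 23.9, 22.8 and 18.4 CPM in BH-WT livers (-0.11 ± 0.26, interval -0.68 to 0.46). Libraries labelled BH-HF-KO had 14.8, 22.7 and 26.9 CPM, against 21.2, 30.5 and 24.3 CPM in BH-HF-WT livers (-0.24 ± 0.26). KO and WT overlapped within each setting, and every BH-WT library lay above every H-WT library (0.58 ± 0.27, adjusted p = 0.527). In H the direction rested on H-KO replicate 2, without which the log2 fold change was -0.01.

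LRH-1, an activator of bile acid synthesis genes that binds DNA without a partner, is encoded by *Nr5a2* (ENSMUSG00000026398, chr1:136842571-136960448, minus strand). Its level varied least of the 9: the highest group mean, in BH-HF-KO, was 1.22 times the lowest, in H-WT. Group means were 80.6 ± 8.7 CPM in H-KO against 77.5 ± 8.85 in H-WT, 81.6 ± 10.4 in BH-KO against 88.8 ± 2.58 in BH-WT, and 94.4 ± 16.5 in BH-HF-KO against 90.6 ± 5.12 in BH-HF-WT. The intervals of the log2 fold change were -0.23 to 0.34 in H, -0.41 to 0.16 in BH and -0.23 to 0.34 in BH-HF.

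LXRα, the oxysterol receptor most abundant in liver, is encoded by *Nr1h3* (ENSMUSG00000002108, chr2:91184061-91202834, minus strand) and fell in both lines. H-KO livers had 39.2, 37.6 and 40.6 CPM, against 81.4, 67.3 and 81.9 CPM in H-WT livers. BH-KO livers had 61, 32.6 and 40.8 CPM, against 68.9, 80 and 83.8 CPM in BH-WT livers. On the high-fat diet, libraries labelled BH-HF-KO had 86.3, 94.7 and 74.4 CPM, against 84.1, 90.2 and 78.2 CPM in BH-HF-WT livers. The 4 groups other than H-KO and BH-KO overlapped with each other, and every one of their libraries lay above every H-KO and BH-KO library. *Nr1h3* was 1.96-fold lower in H-KO (-0.97 ± 0.17, adjusted p = 0.000624; -0.93 ± 0.19 without H-WT replicate 3). It was 1.74-fold lower in BH-KO (-0.80 ± 0.17, adjusted p = 0.00379; -1.08 ± 0.14 without BH-KO replicate 1), and this call was lost with the BH groups fitted alone (adjusted p = 0.0824). In BH-HF the log2 fold change was 0.02 ± 0.17 with an interval of -0.36 to 0.39. Macrophages also express LXRα, and the macrophage markers given above are the values to set beside the BH result.

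*Nr1h2*, the gene of the widely expressed LXRβ (ENSMUSG00000060601, chr7:44549616-44553951, minus strand), fell in BH and did not pass in H. BH-KO livers had 24.7, 23.1 and 20.8 CPM, against 42.2, 37.9 and 36.8 CPM in BH-WT livers, with no overlap (-0.77 ± 0.13, adjusted p = 0.000548; -0.83 ± 0.14 without BH-KO replicate 1). H-KO livers had 23.8, 30.9 and 25.8 CPM, against 29.5, 27.4 and 35.7 CPM in H-WT livers, which overlapped (-0.20 ± 0.13, adjusted p = 0.234). Libraries labelled BH-HF-KO had 29.4, 28.6 and 26.5 CPM, against 34.4, 27.7 and 32.2 CPM in BH-HF-WT livers (-0.16 ± 0.13). The highest group was BH-WT, which did not overlap the next, BH-HF-WT (31.4 ± 3.39 CPM). The difference between the BH and the H effect was -0.57 ± 0.18 (adjusted p = 0.0689), so a difference between the lines did not pass. It passed without BH-KO replicate 1 (-0.62, adjusted p = 0.0498) and without H-WT replicate 3 (-0.68, adjusted p = 0.0464).

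RXRα is the shared partner of CAR, PXR, FXR and the LXRs, and *Rxra* (ENSMUSG00000015846, chr2:27676440-27762957, plus strand) fell in both lines. H-KO livers had 282, 289 and 305 CPM, against 485, 447 and 432 CPM in H-WT livers. BH-KO livers had 316, 232 and 287 CPM, against 577, 451 and 462 CPM in BH-WT livers. On the high-fat diet, libraries labelled BH-HF-KO had 596, 642 and 549 CPM, against 601, 583 and 646 CPM in BH-HF-WT livers. H-KO and BH-KO overlapped each other and lay below all other groups. *Rxra* was 1.56-fold lower in H-KO (-0.64 ± 0.14, adjusted p = 0.0025; -0.68 ± 0.16 without H-WT replicate 3). It was 1.78-fold lower in BH-KO (-0.84 ± 0.14, adjusted p = 0.000622; -0.94 ± 0.14 without BH-KO replicate 1). In BH-HF the log2 fold change was -0.03 ± 0.14 with an interval of -0.34 to 0.27.

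Differences between KO effects were tested as interaction terms. Between the BH and the H line, 1 of 9 receptors passed, against 6.06% of all genes: the *Nr1i2* effect was lower in BH by -0.91 ± 0.25 (adjusted p = 0.0388). *Nr1i2* lay below WT in BH and above WT in H, and the call was lost in 10 of 20 alternatives, with -1.06 to -0.79 and adjusted p up to 0.105. Single libraries whose removal ended it were BH-KO replicates 2 and 3, BH-WT replicates 1 and 2, H-KO replicates 2 and 3, and each H-WT replicate. For *Nr1i3* the difference of 1.54 ± 1.15 (adjusted p = 0.443) was -0.30 without BH-KO replicate 1. Between BH-HF and BH, 2 of 9 passed, against 6.1% of all genes: *Nr1i3* (3.60 ± 0.98, adjusted p = 0.0461) and *Rxra* (0.80 ± 0.20, adjusted p = 0.0267). The *Nr1i3* call was lost in 12 of 20 alternatives and the *Rxra* call in 8 of 20. Of the 12 libraries in this comparison, the *Nr1i3* call was kept without BH-KO replicate 1, BH-WT replicate 2 or BH-HF-WT replicate 2 and lost without any other. The *Rxra* call was lost without BH-HF-KO replicates 1 and 2, BH-HF-WT replicates 1 and 2, BH-KO replicates 2 and 3 or BH-WT replicate 1. Without BH-KO replicate 1, 5 of 9 passed: *Nr1i3* (5.45 ± 0.84, adjusted p = 0.000514), *Rxra* (0.91, adjusted p = 0.00209), *Nr1h3* (1.10, adjusted p = 0.000301), *Nr1h4* (0.99, adjusted p = 0.00462) and *Nr1h2* (0.67, adjusted p = 0.0176). Both interaction terms use the BH libraries, and the second draws its direction from the libraries labelled BH-HF-KO.

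Set directly against H-KO, BH-KO differed in 3 of 9 receptors, against 16.4% of all genes, 10.1% higher and 6.3% lower. *Ahr* was higher, as given above, *Nr1h4* was higher (0.72 ± 0.18, adjusted p = 0.0148) and *Nr1i2* was lower (-0.70 ± 0.17, adjusted p = 0.0132). The *Nr1h4* call was lost without BH-KO replicate 1 (0.50, adjusted p = 0.0532) or H-KO replicate 2 (adjusted p = 0.0791), and the *Nr1i2* call without H-KO replicate 2 (adjusted p = 0.06) or H-KO replicate 3 (adjusted p = 0.0606). *Nr1i3* was at 1.87 ± 0.95 (adjusted p = 0.197), and at 0.02 without BH-KO replicate 1. In BH-WT against H-WT, 0 of 9 passed by edgeR, DESeq2 or limma-voom, against 0.165% of all genes, and *Nr1h2*, *Ahr* and *Nr0b2* had an unadjusted p under 0.05 (log2 fold changes of 0.34, 0.56 and 0.58). In BH-HF-WT against BH-WT, 0 of 9 passed by the same tools, against 7% of all genes, and *Nr1h4*, *Nr1h2* and *Rxra* had an unadjusted p under 0.05 (-0.46, -0.31 and 0.30).

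Levels of different receptors were compared per kilobase of their principal transcript. In H-KO livers *Rxra* was highest at 59.5 CPM per kilobase, followed by *Nr5a2* at 43.4 and *Nr1h4* at 42.3, and *Nr1i3* was lowest at 0.853. In H-WT livers *Nr1h4* (93.3) and *Rxra* (92.7) led, *Nr1i3* was at 29.9 and *Ahr* was lowest at 6.49 CPM per kilobase. BH-KO livers had *Nr1h4* at 70.1, *Rxra* at 56.7 and *Nr1i3* lowest at 3.52, and BH-WT livers had *Nr1h4* at 113, *Rxra* at 101, *Nr1i3* at 37.5 and *Ahr* lowest at 9.59 CPM per kilobase. In libraries labelled BH-HF-KO *Rxra* was at 121 and *Nr1h4* at 86.2, against 124 and 82.1 CPM per kilobase in BH-HF-WT livers. The places of *Nr5a2* and *Nr1i3* depend on the length used: their principal transcripts hold 1859 and 1414 bases, and all annotated exons together 5899 and 4414.

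**Figure D3:**
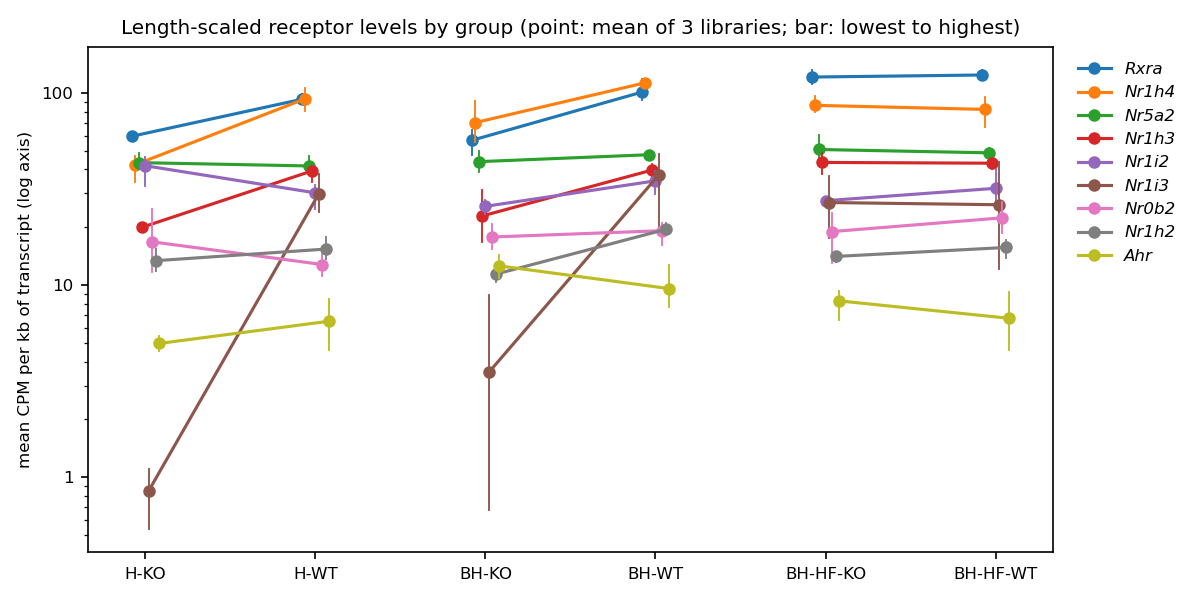
Mean receptor level per kilobase of principal transcript in each group, in CPM per kilobase on a log axis, with bars from the lowest to the highest of 3 libraries and lines joining KO and WT of a setting. *Nr1i3* drops to the bottom of the 9 in H-KO (0.853) and BH-KO (3.52), while *Rxra* or *Nr1h4* is at the top of every group.

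Genes known from the literature as targets of these receptors moved in both directions. The lists share genes with each other, and P450s, glutathione transferases and other families with near-identical members have uncertain counts. The counts of each list are to be read against all tested genes. Of these, 34.9% passed in H (15.8% rising, 19.1% falling) and 28.6% in BH (14.3% rising, 14.3% falling). Whether any list differed from these shares was not tested. Of 27 tested CAR and PXR targets, 8 rose and 10 fell in H-KO, with a median log2 fold change of -0.24 beside 0.00 for all genes. The falls included the drug-metabolising *Cyp2c37* (6.43 ± 0.512 CPM in H-KO, 576 ± 317 in H-WT, -6.48 ± 1.38, adjusted p = 0.00272) and its near copy *Cyp2c54* (-6.43 ± 1.48, adjusted p = 0.00451). The rises included the stress gene *Gadd45b* (44.7 ± 12 CPM in H-KO, 1.86 ± 0.647 in H-WT, 4.58 ± 0.81, adjusted p = 0.000778). The number of falls was 6 to 9 with 1 library left out, and moved by over 1.5 times without H-KO replicate 1, H-KO replicate 3 or H-WT replicate 3. In BH-KO 9 rose and 5 fell (median -0.50, beside 0.03 for all genes), among them the glutathione transferase *Gstm3* (831 ± 452 CPM in BH-KO, 34.2 ± 5.61 in BH-WT, 4.60 ± 0.48, adjusted p = 1.91e-05) and *Cyp2a5* (117 ± 104 CPM in BH-KO, 1046 ± 117 in BH-WT, -3.16 ± 0.56, adjusted p = 0.00109). *Cyp2a5* was at -4.18 and the number of falls at 11 without BH-KO replicate 1.

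Of 9 tested AHR targets, 2 rose and 2 fell in H-KO (median 0.40), and 2 rose and 1 fell in BH-KO (median -0.40). *Cyp1a2*, which oxidises caffeine and aromatic amines, was at 83.4 ± 20.1 CPM in H-KO against 656 ± 214 in H-WT (-2.98 ± 0.34, adjusted p = 2.63e-05). *Ugdh*, which makes the sugar donor for glucuronidation, was at 317 ± 147 CPM in BH-KO against 116 ± 17.7 in BH-WT (1.46 ± 0.27, adjusted p = 0.00144), a call lost with the BH groups fitted alone. Counts this small moved by over 1.5 times without several of the libraries: the number of rises in H-KO was 0 or 1 without any 1 library, and that in BH-KO 1 to 3.

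Of 17 tested FXR and SHP targets, 4 rose and 5 fell in H-KO (median -0.38), and 3 rose and 6 fell in BH-KO (median -0.50). The bile acid conjugation genes *Slc27a5* (25.7 ± 4.76 CPM in H-KO, 822 ± 156 in H-WT, 31.9-fold lower, adjusted p = 0.000509) and *Baat* (10.5 ± 0.56 CPM in H-KO, 294 ± 13.8 in H-WT, -4.81 ± 0.90, adjusted p = 0.00118) fell in H-KO. *Abcb11*, the bile salt export pump, rose in H-KO (1002 ± 126 CPM against 576 ± 172 in H-WT, 0.80 ± 0.24, adjusted p = 0.018) and in BH-KO (1015 ± 344 CPM against 550 ± 85.3 in BH-WT, 0.88 ± 0.24, adjusted p = 0.0141). The *Abcb11* call was lost in H without H-KO replicate 2, H-KO replicate 3 or H-WT replicate 1, and in BH when BH-WT replicate 1 or BH-KO replicate 3 was left out or the BH groups were fitted alone, with adjusted p up to 0.0835 in H and 0.0972 in BH. *Vldlr*, a lipoprotein receptor, rose in H-KO (66.4 ± 3.59 CPM against 18.5 ± 7.73 in H-WT, 1.85 ± 0.48, adjusted p = 0.00892) and in BH-KO (22.4 ± 15.7 CPM against 4.86 ± 0.913 in BH-WT, 2.22 ± 0.54, adjusted p = 0.00825; lost under limma-voom and with the BH groups fitted alone). The number of rises in H-KO was 2 to 4, and that in BH-KO 1 to 3, as libraries were left out, moving by over 1.5 times without H-KO replicate 2, H-WT replicate 1, BH-KO replicate 3 or BH-WT replicate 1.

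Of 20 tested LXR targets, 2 rose and 6 fell in H-KO (median -0.12), and 1 rose and 8 fell in BH-KO (median -0.59). The sterol exporter *Abcg1* (19 ± 4.1 CPM in H-KO, 5.44 ± 1.18 in H-WT, 1.79 ± 0.42, adjusted p = 0.00413) and the fatty acid synthesis gene *Acaca* rose in H-KO. The desaturase *Scd1* (283 ± 30.8 CPM in H-KO, 3382 ± 1983 in H-WT, -3.58 ± 0.64, adjusted p = 0.00068) and *Cyp7a1*, which catalyses the first step of bile acid synthesis (41.3 ± 11.9 CPM in H-KO, 183 ± 79.7 in H-WT, -2.15 ± 0.56, adjusted p = 0.00896), fell. In BH-KO the lipid synthesis regulator *Srebf1* fell (60 ± 10.2 CPM against 172 ± 25.9 in BH-WT, -1.52 ± 0.21, adjusted p = 0.000131) and the lipoprotein lipase gene *Lpl* rose (357 ± 97 CPM against 37.1 ± 9 in BH-WT, 3.26 ± 0.48, adjusted p = 0.000361).

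Of 10 tested LRH-1 targets, 1 rose and 4 fell in H-KO (median -0.24), and 2 rose and 5 fell in BH-KO (median -0.73). The bile acid hydroxylase *Cyp8b1* was at 8.23 ± 0.306 CPM in H-KO against 93 ± 50.9 in H-WT (-3.50 ± 0.69, adjusted p = 0.00169), and the kinase *Plk3* at 9.69 ± 3.37 CPM in H-KO against 82.8 ± 7.38 in H-WT (-3.09 ± 0.57, adjusted p = 0.00107). In BH-KO *Plk3* was at 15.4 ± 7.31 CPM, against 65.7 ± 22.3 in BH-WT (-2.10 ± 0.55, adjusted p = 0.0127; lost without BH-KO replicate 2, adjusted p up to 0.0553). The number of rises in H-KO was 0 to 2, and moved without H-KO replicate 1, H-KO replicate 2, H-WT replicate 1 or H-WT replicate 3. In BH-KO the falls in the CAR and PXR, FXR and SHP, LXR and LRH-1 lists numbered 1 to 11, 2 to 8, 3 to 11 and 1 to 6 as each library was left out, with the highest count of each list without BH-KO replicate 1. All 4 counts moved by over 1.5 times without BH-KO replicate 2, BH-KO replicate 3 or BH-WT replicate 1, those of the CAR and PXR and the FXR and SHP lists also without BH-WT replicate 2 or 3, and that of the CAR and PXR list also without BH-KO replicate 1.

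Of 24 tested partners and coregulators of the receptors, 2 rose and 2 fell in H-KO (median 0.05), and 4 rose and 2 fell in BH-KO (median 0.10). The rises in H-KO numbered 0 or 1 without any 1 library. The chaperone gene *Hsp90aa1*, whose product holds CAR and AHR in the cytoplasm, was at 102 ± 6.51 CPM in H-KO against 157 ± 15.5 in H-WT (-0.62 ± 0.13, adjusted p = 0.00174). It was at 150 ± 9.09 CPM in BH-KO against 90 ± 13.3 in BH-WT (0.74 ± 0.13, adjusted p = 0.000817). *Ptges3*, a cochaperone of HSP90, fell in H-KO (-0.85 ± 0.11, adjusted p = 4.23e-05), and *Dnajc7*, which retains CAR in the cytoplasm, rose in BH-KO (89.1 ± 7.77 CPM against 55.1 ± 3.47 in BH-WT, 0.69 ± 0.09, adjusted p = 0.000115). Of 30 other nuclear receptor genes tested, 4 rose and 11 fell in H-KO (median -0.45), and 3 rose and 9 fell in BH-KO (median -0.39). The rises in H-KO numbered 2 to 4, and moved by over 1.5 times without H-KO replicate 3. *Ppara*, the fatty acid receptor (28.9 ± 6.5 CPM in H-KO, 164 ± 26.3 in H-WT, -2.51 ± 0.39, adjusted p = 0.000328), fell in H-KO. In BH-KO the clock repressor *Nr1d2* fell (26 ± 2.86 CPM against 192 ± 14.3 in BH-WT, -2.88 ± 0.16, adjusted p = 5.26e-08). No gene of any of these 7 lists passed in BH-HF.

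**Figure D4:**
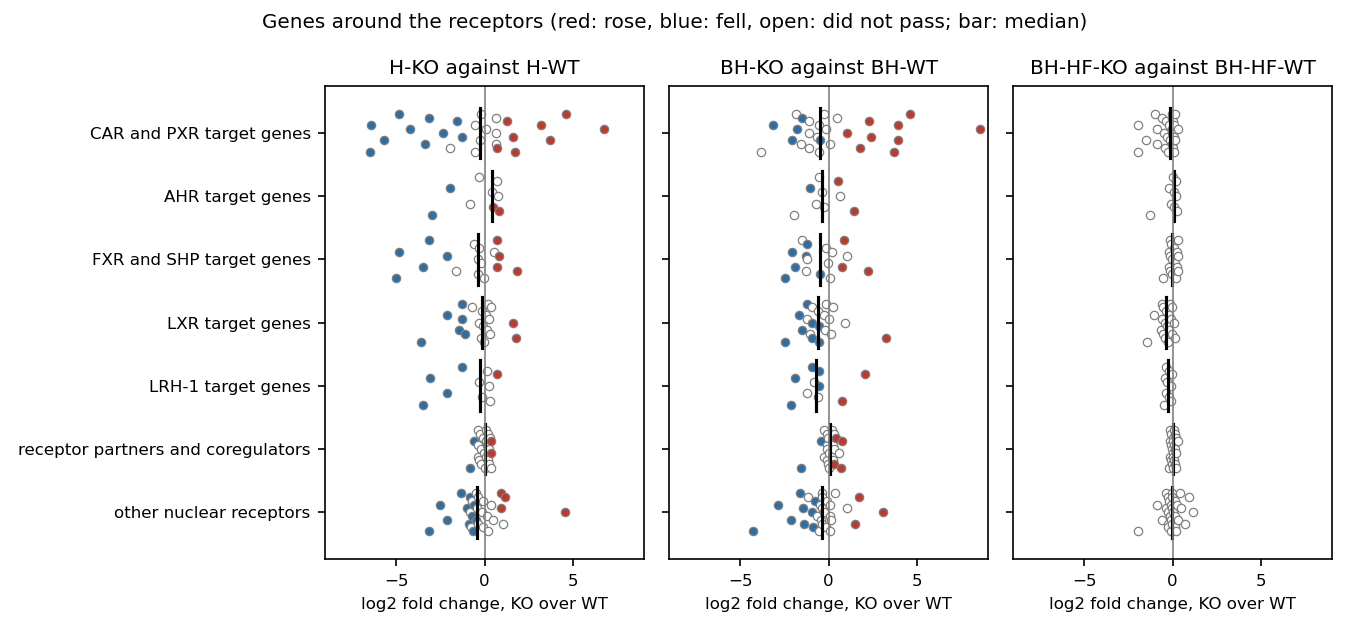
Log2 fold change of KO over WT for each tested gene of 7 lists around the receptors, with a point per gene, red for genes that rose, blue for genes that fell, open for genes that did not pass, and a bar at the list's median. In H and BH the 5 target lists hold genes of both colours, and in BH-HF every point is open.

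Across the 18 libraries, the genes whose log2 CPM followed a receptor most closely were sought among 9372 genes, and the values describe libraries that share the same groups. *Nr1i3* was followed most closely by *Slc47a1* (a drug exporter), *Pbld2* and *Sirt3*, with Pearson's r of 0.98, 0.98 and 0.979. *Nr1h3* was followed by *Slc23a1*, *Car5a* and *Pcx* (0.976, 0.974 and 0.973), *Rxra* by *Ppp1r37*, *Mavs* and *Spns2* (0.971, 0.969 and 0.965), and *Nr1h4* by *Nit2*, *Mfsd14b* and *Pank1* (0.952, 0.941 and 0.939). The other receptors had a highest r of 0.912 (*Ahr* with *L3hypdh*), 0.896 (*Nr1h2* with *Calcoco1*), 0.83 (*Nr5a2* with *Serpina3n*), 0.828 (*Nr1i2* with *Slc25a47*) and 0.719 (*Nr0b2* with *Rprd1b*). Between receptors, r was 0.933 for *Nr1i3* and *Nr1h3*, 0.913 for *Nr1h3* and *Rxra*, 0.889 for *Nr1i3* and *Nr1h4*, and -0.518 for *Nr1i2* and *Ahr*.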

How the data were processed

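Whole-number read counts per gene for the 18 livers were deposited by the authors as 1 table without normalization. STAR 2.6 and mouse build mm10 are named in the submitters' processing notes. Not given in the sources used here are the counting tool, the annotation behind it and the handling of strand and of multiply matching reads, so counts of near-identical, overlapping and antisense genes are uncertain. Samples were grouped by their labels, and all 18 columns were used.

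Of 52636 gene rows, 22756 had no count. Genes kept by filterByExpr (minimum count 10, by group) numbered 13958. edgeR 4.0.16 in R 4.3.3 fitted 6 group means to all 18 libraries with TMM factors and 12 residual degrees of freedom, and the robust, two-sided quasi-likelihood F-test was applied to 8 comparisons, with Benjamini-Hochberg adjustment over all tested genes. The SE is the absolute log2 fold change over the square root of F, and the 95% interval uses the t quantile for 12 degrees of freedom. A count of 0 allows up to 3 counts, or 0.264 to 0.48 CPM. Such limits and the totals cover counting error only. The script was checked on simulated counts. Within-group pairs differed by more than sampling noise, so no library counted double.

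Coordinates, exon overlaps and lengths are from GENCODE M21 (mm10), counted from 1, and promoters from RefSeq on GRCm38.p6. Likeness is Pearson's r of log2 CPM with a prior count of 2, among named genes averaging at least 5 CPM. Besides the 9 receptors, the text names, for each list and comparison, up to 2 rises and 2 falls with the largest change among genes that passed and had at least 5 CPM in a group, and not every one is described; some of these genes are not reported here. The receptors and the lists were chosen with earlier results of these data known. Alternatives were DESeq2 size factors, upper-quartile factors, no filter, a filter at 1 CPM in 3 libraries, the tests of DESeq2 1.42.0 and limma-voom 3.58.1, the compared groups alone, a replicate block, and leaving out each library.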

Additional observations from a re-analysis of the deposited data

Results flagged for a closer look

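An interaction test between settings passed at an adjusted p under 0.05 for 3 receptor and setting pairs. Of all genes, 6.06% passed for BH minus H and 6.1% for BH-HF minus BH. The *Nr1i2* effect was lower in BH than in H by -0.91 ± 0.25 (adjusted p = 0.0388, lost in 10 of 20 alternatives). The *Nr1i3* effect was higher in BH-HF than in BH by 3.60 ± 0.98 (adjusted p = 0.0461, lost in 12 of 20). The *Rxra* effect was higher in BH-HF than in BH by 0.80 ± 0.20 (adjusted p = 0.0267, lost in 8 of 20). With only the compared groups fitted, none of these passed (adjusted p of 0.0554, 0.116 and 0.0866, in that order). The BH-HF results rest on libraries labelled BH-HF-KO whose *Arntl* level differs from that of BH-KO, and on mice that differ from BH in age and diet.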

How the results depend on the processing

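Over the 9 receptors and 8 comparisons, 1019 repeats kept direction and side of the threshold, 47 lost a call, 13 gained one and 37 changed sign. With groups fitted alone, 2 receptors passed in BH-KO against BH-WT, 1 in BH-KO against H-KO and 0 in either interaction. For the BH minus H interaction, upper-quartile factors and DESeq2 each gave 2. For BH-HF minus BH, no filter gave 1, and DESeq2 and limma-voom each gave 4. Leaving out each library gave 4 to 5 receptors in H, 4 to 6 in BH, 0 to 2 for BH minus H, 0 to 5 for BH-HF minus BH, 1 to 3 for BH-KO against H-KO and 0 in the other comparisons. *Nr5a2* in BH-KO against H-KO was at -0.06 with upper-quartile factors, and *Nr1h3* in BH-HF at -0.01 without a filter. Upper-quartile factors moved the median of all genes by 0.15 in H and 0.11 in BH, and the share of calls that rose to 61.8% and 59.8%, against 45.4% and 50.1%; 5 receptors passed in each line.

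Signs changed, none with a call, as each library was left out: *Nr5a2* -0.04 to 0.15 in H, -0.09 to 0.16 in BH-HF, -0.08 to 0.11 in BH-KO against H-KO and -0.02 to 0.06 in BH-HF-WT against BH-WT; *Nr0b2* -0.01 to 0.59 in H, -0.32 to 0.08 for BH-HF minus BH and -0.12 to 0.47 in BH-KO against H-KO. For *Nr1h3* the values were -0.07 to 0.11 in BH-HF, -0.10 to 0.37 for BH minus H, -0.09 to 0.38 in BH-KO against H-KO and -0.08 to 0.09 in BH-WT against H-WT. For *Nr1i3* they were -0.30 to 0.63 in BH-HF and -0.30 to 2.08 for BH minus H, for *Nr1h4* -0.06 to 0.20 in BH-HF, and for *Rxra* -0.09 to 0.02 in BH-HF and -0.17 to 0.05 in BH-KO against H-KO. For *Ahr* they were -0.35 to 0.19 for BH-HF minus BH, for *Nr1i2* -0.33 to 0.02 in BH-HF-WT against BH-WT, and for *Tomm40l* -0.56 to 0.48 in BH-HF. The cause was not tested.

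Counts of all genes that moved by over 1.5 times were, in BH, 3990 against 1096 with the groups alone and 2330 to 5916 with a library left out. For BH minus H they were 846 against 516 without a filter, 1400 by DESeq2, 498 alone and 344 to 1247 with a library left out. For BH-HF minus BH they were 851 against 1310 by DESeq2, 431 alone and 353 to 3046. For BH-KO against H-KO they were 2292 against 919 alone and 1191 to 2339. Between WT groups, 23 against 35 without a filter, 101 by DESeq2, 12 by limma-voom, 14 with the replicate block and 7 to 18 passed in BH-WT against H-WT, and 977 against 1495 by DESeq2 and 225 to 1014 in BH-HF-WT against BH-WT. Of 26 target genes eligible for naming in H, 17 kept their call in every setting, and of 25 in BH, 9 did.

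Same-numbered KO and WT samples did not deviate together (correlations of -0.17 to 0.044), so the replicate number was not taken as a pairing. With it as a block, 5 receptors passed in H and 5 in BH, *Nr1i3* in BH-HF was at -0.12, and 1 receptor passed for BH-HF minus BH instead of 2. Depth limits *Nr1i3* most, with 7 to 495 counts per library.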

Other observations

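The classical target genes of CAR and PXR are given here as values only, since they were chosen after their values were seen. *Cyp2b10*, the classical CAR target, was at 66.4, 92.3 and 67.9 CPM in H-KO livers, against 12, 50.4 and 84.3 CPM in H-WT livers. The value of 84.3 CPM is from H-WT replicate 3, the library with the pattern of a female. The other H-WT libraries lay below every H-KO library. In the same H-KO livers *Nr1i3* was at or below 1.56 CPM. *Cyp2b10* was at 35.9, 60.8 and 48.4 CPM in BH-KO livers, against 15.2, 5.76 and 22.7 CPM in BH-WT livers. In the 6 BH-HF libraries it had 0 or 1 counts each (at most 0.148 CPM), under the limit that a count of 0 allows, while *Nr1i3* was between 17.2 and 61.8 CPM. *Cyp3a11*, the classical PXR target, was at 893, 837 and 917 CPM in H-KO livers, against 6401, 11767 and 5409 CPM in H-WT livers. It was at 9198, 1037 and 1713 CPM in BH-KO livers, against 6654, 6010 and 6509 CPM in BH-WT livers, so BH-KO replicate 1 lay above every BH-WT library and the other BH-KO libraries lay below them. In BH-HF it was at 181, 22.3 and 426 CPM in libraries labelled BH-HF-KO, against 60, 988 and 95.2 CPM in BH-HF-WT. Reads of close *Cyp2b* and *Cyp3a* relatives may be split among them, and age and diet both separate BH-HF from BH.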
